A study of Mus musculus with 2 samples.

Results

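The miR-99/100 and miR-125 genes that lie in clusters with let-7 were followed in microRNA sequencing of the mouse hippocampus. The 6 genes are Mir99a, Mir99b, Mir100, Mir125a, Mir125b-1 and Mir125b-2, matched by gene name in the GENCODE M21 annotation, and all 6 were among the 2202 miRNA genes of the deposited count tables. RNA under 30 nt was sequenced from a layer of the hippocampus of adult females, labelled as strain 5xFAD/CAST and 8 to 10 months old, as 1 group of 2 biological replicates. 5xFAD mice are a transgenic model of Alzheimer's disease whose transgenes are driven in neurons by a Thy1 promoter. CAST stands for an inbred line of Mus musculus castaneus. Both libraries carry the 5xFAD entry and no control genotype, and the labels give them separate biosamples under 1 donor entry, so the spread between them may be partly technical. The data therefore compare the 6 genes with each other, their 3 loci, and the 2 replicates.

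MiRNAs of the miR-99/100 family pair with messenger RNAs through a seed near their 5′ end and are known to repress MTOR and IGF1R in several cell types. MiR-125 is the vertebrate counterpart of lin-4, the first miRNA described in Caenorhabditis elegans, and miR-125b acts at synapses with the fragile X protein. Members of both families are made, together with a let-7 miRNA, from conserved clusters, and lin-4 and let-7 are timing genes of larval development in the worm.

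The mature sequences, from RefSeq (GRCm38.p6) and matched for 6 of the 6 genes, show which genes have a sequence of their own. They are written 5′ to 3′ with the seed, bases 2 to 8, in capitals. The 5p sequences of the 6 genes are given first, since these hold the seeds that name the families.
miR-99a-5p: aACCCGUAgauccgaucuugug
miR-100-5p: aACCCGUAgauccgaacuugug
miR-99b-5p: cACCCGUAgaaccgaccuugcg
miR-125a-5p: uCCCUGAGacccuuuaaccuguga
miR-125b-5p: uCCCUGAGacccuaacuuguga
The miR-99a and miR-100 sequences differ by the single substitution U16A, counted from 1 at the 5′ end with the miR-99a base first. MiR-99b differs from miR-99a by 4 substitutions, A1C, U11A, U16C and U21C, all outside the seed. MiR-125a and miR-125b share their first 13 bases. Mir125b-1 and Mir125b-2 encode the same 5p sequence, so the 6 genes give 5 different 5p sequences. A search of the transcripts of 2201 miRNA genes in the M21 annotation found miR-125b-5p in 2 genes and each of the other 4 sequences in 1 gene. This search took exact matches only, and whether the counts keep near-identical sequences such as miR-99a-5p and miR-100-5p apart was not tested.

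Reads of the shared miR-125b-5p may map to several places and so stand outside the gene counts, which was not tested. The 3p arms differ between the miR-125b copies, and they are shown because a gene's count can hold reads of both arms.
miR-125b-1-3p: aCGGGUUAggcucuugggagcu
miR-125b-2-3p: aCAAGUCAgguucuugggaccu
These 2 sequences differ by 5 substitutions, G3A, G4A, U7C, C11U and G20C (the miR-125b-1 base first), and each was found in 1 gene. The hairpins of Mir99a and Mir125b-1 show how the arms lie, with the mature sequences in capitals.
Mir99a: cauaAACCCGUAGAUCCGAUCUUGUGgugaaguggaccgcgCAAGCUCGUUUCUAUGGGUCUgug
Mir125b-1: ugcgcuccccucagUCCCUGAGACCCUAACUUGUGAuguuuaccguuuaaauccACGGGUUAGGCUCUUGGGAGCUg
The 3p arms of miR-99a and miR-99b also share a seed, AAGCUCG, whereas that of miR-100-3p is CAAGCUU.

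The 3 loci differ in layout, and all 9 cluster genes lie on the plus strand of mm10. On chromosome 16, Mir99a (ENSMUSG00000065530.1, chr16:77598936-77599000) lies 656 bases upstream of Mirlet7c-1, and Mir125b-2 (ENSMUSG00000065472.1, chr16:77646273-77646343) lies 46522 bases further on. Both are in introns of the long non-coding host gene Mir99ahg, and the last 4 bases of Mir125b-2 overlap an exon of C130023A14Rik, a gene annotated as yet to be experimentally checked. On chromosome 17, Mir99b (ENSMUSG00000065396.1, chr17:17830188-17830257), Mirlet7e and Mir125a (ENSMUSG00000065479.2, chr17:17830812-17830879) are packed close, with 94 bases between the first pair and 367 between the second. Mir99b is in an intron of Spaca6, a gene needed for sperm to fuse with the egg. Mir125a overlaps an exon by 47 bases in 1 of the 3 Spaca6 transcripts that span it. On chromosome 9, Mir100 (ENSMUSG00000093011.1, chr9:41531425-41531504) lies 5211 bases upstream of Mirlet7a-2, and Mir125b-1 (ENSMUSG00000093354.1, chr9:41581926-41582002) lies 45114 bases beyond that. Both are intronic in the non-coding gene 3110039I08Rik, and Mir125b-1 also lies in an exon of the sense-intronic gene Gm28119. On the other strand, Mir99a lies in an intron of Gm11146 and Mir100 in an exon of Gm48742, and the 6 genes had 0 counts on that strand in both libraries.

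Depth sets the counting error of these levels, not the spread between the libraries. Replicate 1 held 9962659 reads and replicate 2 held 12761689, of which 3135960 and 4377622 were counted for miRNA genes on their own strand. Levels are these counts scaled to CPM, with the counts assigned to miRNA genes as the total. The floor that a count of 0 allows, taken as 3 counts, was 0.957 CPM for replicate 1 and 0.685 CPM for replicate 2. Reads that mapped to several places, 36.3% of replicate 1 and 41.7% of replicate 2, stand on a line of their own in the tables outside the gene counts. Intervals and floors cover counting error alone, since PCR copies are not independent molecules. Of the 12 listed miRNA genes of brain and neurons, 8 had at least 10 counts in each library, and the 12 had a summed level of 36033 CPM in replicate 1, against 34370 CPM in replicate 2. Members of this list went opposite ways, since Mir132 had 21687 CPM in replicate 1 against 13106 CPM in replicate 2, while Mir128-1 had 4545 CPM against 9069 CPM and Mir137 had 4757 CPM against 6655 CPM. The brain-defining Mir124a copies, which like miR-125b have several genes, had between 0 and 8 counts.

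The 6 genes together held 4.35% of the miRNA counts in replicate 1 and 5.09% in replicate 2, or 4.72% ± 0.522 (SD, n = 2). The miR-99/100 genes supplied 3.33% (exact Clopper-Pearson 95% interval 3.31% to 3.35%) in replicate 1 and 3.41% (3.39% to 3.42%) in replicate 2. The miR-125 genes supplied 1.02% (1.01% to 1.03%) in replicate 1 and 1.68% (1.67% to 1.70%) in replicate 2. The summed miR-99/100 level thus lay closer between the libraries, at 33673 ± 546 CPM, than the summed miR-125 level, at 13539 ± 4678 CPM (SD, n = 2 each). Multimapping reads, which may include those of the shared miR-125b-5p, stand outside these counts. The values therefore do not compare miR-99/100 with miR-125 as a whole.

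Mir99a was the most abundant of the 6 genes in both libraries. It had 24813 CPM (77812 counts) in replicate 1 and 19543 CPM (85551 counts) in replicate 2, a mean of 22178 ± 3726 CPM (SD, n = 2), and ranked 8 and 11 among the 2202 genes. These ranks are over counts assigned to genes, so miRNAs whose reads map to several places may stand too low in them. Its 2 nearest genes in level over both libraries, by Euclidean distance in log2(CPM + 0.5), were the imprinted Mir127 at a distance of 0.35 and the activity-regulated Mir132 at 0.61.

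Mir100, with 1 base of difference in its 5p arm, was lower. It had 5771 CPM (18097 counts) in replicate 1 and 3774 CPM (16520 counts) in replicate 2, or 4772 ± 1412 CPM (SD, n = 2). Mir99a exceeded it by 4.30-fold in replicate 1 and 5.18-fold in replicate 2. Its nearest genes in level were Mir320 at a distance of 0.20 and Mir379 at 0.35.

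Of the 6 genes, Mir99b varied most between the libraries. It had 2703 CPM (8476 counts) in replicate 1 and 10743 CPM (47027 counts) in replicate 2, or 6723 ± 5685 CPM (SD, n = 2), and ranked 52 in replicate 1 and 21 in replicate 2. Mir100 lay above Mir99b in replicate 1, by 2.13-fold, and below it in replicate 2, at 0.351 times its level. The order of these 2 genes therefore did not hold over the libraries. Taken over both libraries, no other gene lay very near Mir99b, the closest being Mir128-1 at a distance of 0.79 and Mir22 at 0.84. In mean level Mir128-1, at 6807 CPM, lay near Mir99b, so that distance comes from the separate values of the libraries.

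Mir125a carried most of the miR-125 counts that were assigned to genes. Multimapping reads of miR-125b-5p, which 2 genes share, would stand outside these counts. The shares below therefore do not compare miR-125a with miR-125b as a whole. It had 8971 CPM (28134 counts) in replicate 1 and 15538 CPM (68020 counts) in replicate 2, or 12255 ± 4643 CPM (SD, n = 2). Its share of the miR-125 counts was 87.7% (exact 95% interval 87.3% to 88.0%) in replicate 1 and 92.2% (92.0% to 92.4%) in replicate 2. Its neighbours in level were Mir328 at a distance of 0.40 and Mir330 at 0.42.

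The miR-125b copies were the lowest of the 6. Mir125b-1 had 744 CPM (2332 counts) in replicate 1 and 906 CPM (3967 counts) in replicate 2, or 825 ± 115 CPM. Mir125b-2 had 516 CPM (1619 counts) in replicate 1 and 403 CPM (1764 counts) in replicate 2, or 460 ± 80.1 CPM (SD, n = 2 each). Mir125b-1 exceeded Mir125b-2 in both libraries, by 1.44-fold in replicate 1 and 2.25-fold in replicate 2. How many reads of their shared 5p sequence were among the uncounted multimapping reads was not tested, and the level of miR-125b as a whole is not given by these 2 values. The nearest genes in level were Mir409 (0.05) and Mir668 (0.09) for Mir125b-1, and Mir17 (0.04) and Mir877 (0.19) for Mir125b-2.

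In the order of mean levels, Mir99a stood above Mir125a, then came Mir99b, Mir100, Mir125b-1 and Mir125b-2. The ranges of the 2 libraries did not overlap between Mir99a and Mir125a, between Mir100 and Mir125b-1 or between Mir125b-1 and Mir125b-2. They did overlap between Mir125a and Mir99b and between Mir99b and Mir100.

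**Figure D1:**
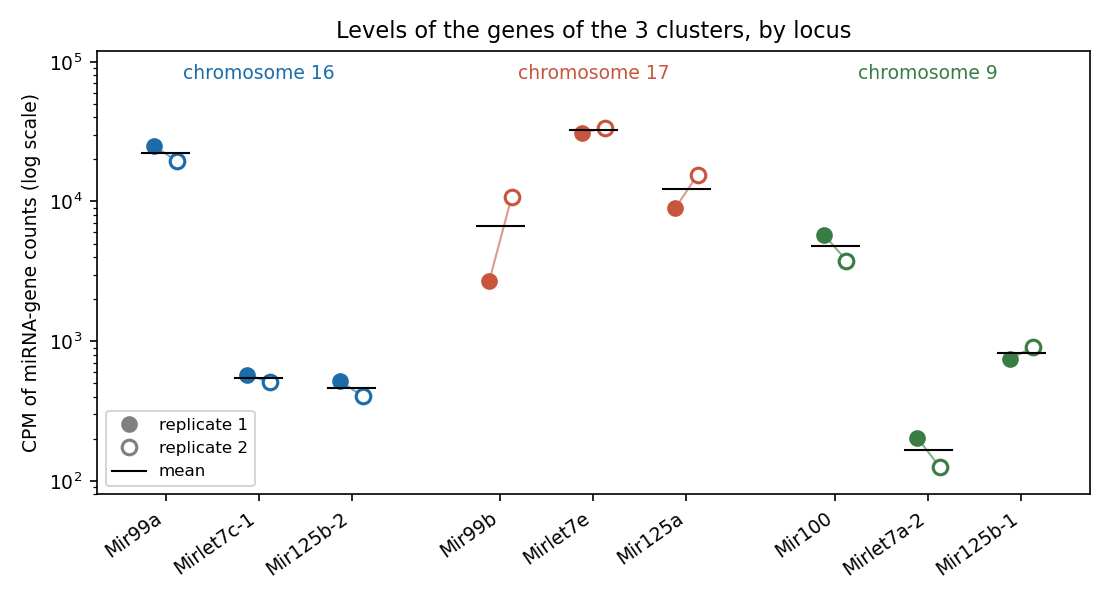
Levels of the 6 genes and of the let-7 gene of each cluster, in CPM of miRNA-gene counts on a log axis, grouped by locus in genomic order. Filled circles are replicate 1, open circles replicate 2 and black lines their mean, and Mir99b shows the widest gap, with 2703 CPM in replicate 1 against 10743 CPM in replicate 2.

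The let-7 gene of each cluster was read as a further gene of its locus. Mirlet7e had 30892 CPM in replicate 1 and 33661 CPM in replicate 2, Mirlet7c-1 had 577 and 506 CPM, and Mirlet7a-2 had 203 and 127 CPM. In M21 transcripts the 5p sequence of Mirlet7e was found in 1 gene and that of Mirlet7c-1 in 2 genes. For Mirlet7a-2 the RefSeq table used here holds only the 3p arm, so its 5p sequence was not searched. Reads of a 5p sequence that several genes share may be among the multimapping reads outside the counts. How many there were was not tested, and these levels do not rank the 3 loci.

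The locus that supplied most counts of the 6 genes was not the same in the 2 libraries. The chromosome 16 locus held 58.2% (exact 95% interval 57.9% to 58.5%) of them in replicate 1 and 39.2% (39.0% to 39.4%) in replicate 2. The chromosome 17 locus held 26.8% (26.6% to 27.1%) in replicate 1 and 51.6% (51.4% to 51.8%) in replicate 2. The chromosome 9 locus was the smallest in both, with 15.0% (14.8% to 15.2%) in replicate 1 and 9.19% (9.07% to 9.31%) in replicate 2. The chromosome 16 and 9 loci each hold a gene of the shared miR-125b-5p, and multimapping reads stand outside these counts. These shares are therefore of assigned counts only, and what the uncounted reads would change was not tested. Within the miR-99/100 genes, Mir99b was 8.12% of the counts in replicate 1 and 31.5% in replicate 2, while Mir99a was 74.5% and 57.4%. The near-equal family totals of the 2 libraries were thus made up of different proportions of the 3 genes.

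**Figure D2:**
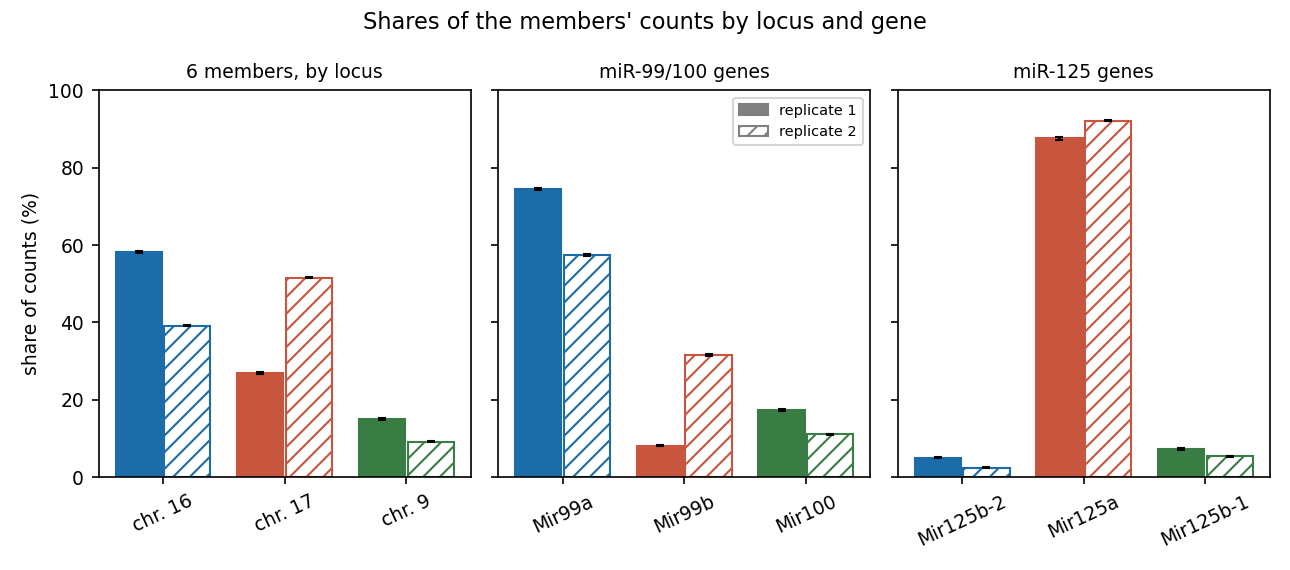
Shares of counts in percent, over the 6 genes by locus (left), the miR-99/100 genes (middle) and the miR-125 genes (right), with solid bars for replicate 1, hatched bars for replicate 2 and exact 95% binomial intervals that are narrow at this depth. The chromosome 17 share was 26.8% in replicate 1 and 51.6% in replicate 2, and Mir125a led the assigned miR-125 counts in both. Multimapping reads, which may include those of the shared miR-125b-5p, stand outside these shares.

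Within a locus, the proportion of the miR-99/100 gene to the miR-125 gene differed widely between loci. On chromosome 16, Mir99a exceeded Mir125b-2 by 48.0-fold in replicate 1 and 48.4-fold in replicate 2, a mean of 5.59 ± 0.01 on the log2(CPM + 0.5) scale. On chromosome 9, Mir100 exceeded Mir125b-1 by 7.76-fold in replicate 1 and 4.16-fold in replicate 2 (log2 mean 2.51 ± 0.63). On chromosome 17 the direction was the opposite, with Mir99b at 0.301 times Mir125a in replicate 1 and 0.691 times in replicate 2 (log2 mean -1.13 ± 0.85, SD, n = 2 in each case). The 3 loci kept this order in both libraries. On chromosomes 16 and 9 the miR-125 gene is 1 of the copies that share miR-125b-5p, and multimapping reads stand outside the counts. With 2 libraries no permutation of the samples can pass a threshold, so these proportions carry no test.

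Between the replicates, the 2 genes of chromosome 17 differed in one direction, the 2 of chromosome 16 in the other, and the 2 of chromosome 9 went apart. Ratios of replicate 1 to replicate 2 were taken after TMM scaling, and each gene's 2 counts were set against counting error with an exact binomial test, adjusted by Benjamini-Hochberg over the 424 genes with at least 20 counts in all. Mir99b was lower in replicate 1, with a log2 ratio of -1.93 (95% counting interval -1.97 to -1.90), and so was Mir125a of the same locus at -0.73 (-0.75 to -0.71). Mir99a of chromosome 16 was higher in replicate 1 at 0.40 (0.39 to 0.42), and Mir125b-2 of that locus lay at 0.42 (0.32 to 0.51, exact binomial test, adjusted p = 2.4e-16). On chromosome 9, Mir100 lay at 0.67 (0.64 to 0.70) and Mir125b-1 at -0.23 (-0.30 to -0.15, exact binomial test, adjusted p = 5e-09). For Mir99a, Mir99b, Mir100 and Mir125a the p-value was below the smallest number that double precision holds.

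All 6 genes passed this test, 3 higher and 3 lower in replicate 1, but so did 59.7% of all genes tested. Among the 149 genes with at least 2000 counts over both libraries, a minimum chosen after the values were seen, 87.9% passed. These p-values compare 2 libraries, not conditions. A call of this kind was thus common among genes of such depth. Of all genes called, 49.4% were higher in replicate 1 after TMM scaling and 32.6% with all reads as the library size. A difference of over 1.5-fold was seen in 3 of the 6 (Mir99b, Mir100 and Mir125a), against 31.8% of the genes tested, and scaled by all reads of each library Mir100 no longer reached it (log2 ratio 0.49). The median absolute log2 ratio was 0.54 over the 6 genes and 0.39 over the 424 genes tested. Among the 149 genes with at least 2000 counts, which include all 6, 22.1% differed by over 1.5-fold and the median absolute log2 ratio was 0.31. The coefficient of variation between the libraries, from edgeR's common dispersion, was 0.373. Mir99b lay in the tail of this spread, since 21 of the 424 genes, and 3 of the 149 with at least 2000 counts, were at least as far apart, itself counted. Those 3 were Mir99b, Mir195a and Mir34c, the other two named after their values were seen.

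**Figure D3:**
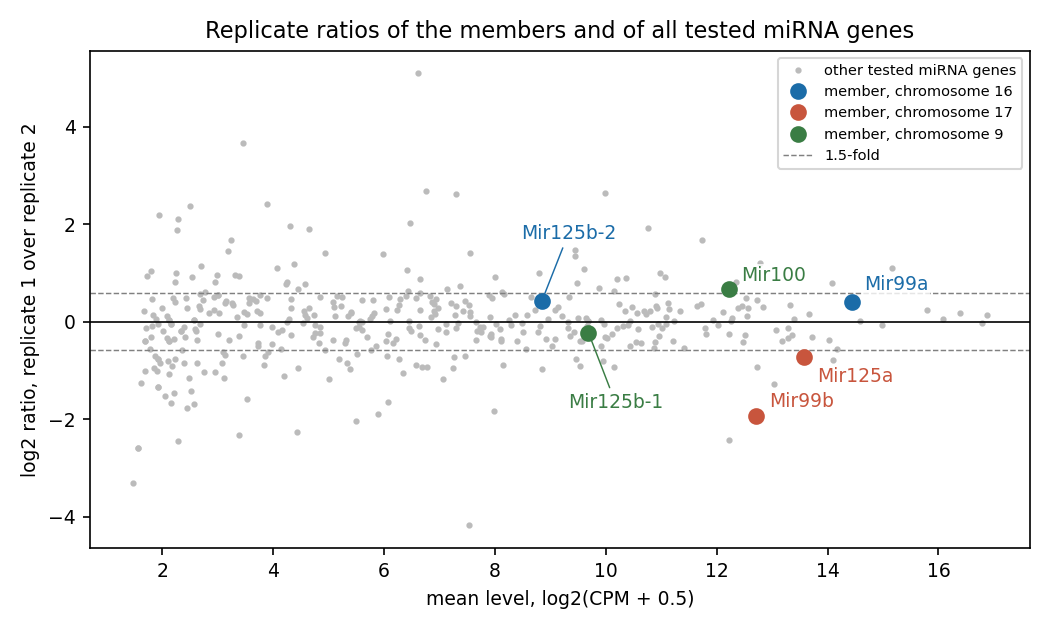
Log2 ratio of replicate 1 over replicate 2 against mean level for the 424 tested genes (grey), with the 6 genes coloured by locus and their 95% counting intervals, which are mostly smaller than the symbols. Dashed lines mark 1.5-fold, and Mir99b at -1.93 lies far below the other 5 genes.

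The let-7 genes gave the replicate ratio of a further gene in each cluster. Mirlet7e, 94 bases downstream of Mir99b, was near equal in the libraries with a log2 ratio of -0.06, so that Mir99b was 0.0875 times Mirlet7e in replicate 1 and 0.319 times in replicate 2. On chromosome 16, Mir99a at 0.40 (0.39 to 0.42) and Mirlet7c-1 at 0.25 (0.16 to 0.34) had the same direction, with counting intervals that did not overlap. On chromosome 9, Mir100 at 0.67 and Mirlet7a-2 at 0.74 (0.58 to 0.91) had the same direction with overlapping intervals, while Mir125b-1 had the other. These differences between genes of a cluster were not tested.

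Pairs of neighbouring miRNA genes, those of the clusters included, were compared after these values were seen, as a background for such a divergence. Over the 55 pairs of neighbouring miRNA genes on 1 strand, at most 10000 bases apart and each with at least 1000 counts over both libraries, the median absolute difference of the log2 ratios was 0.38. The pair Mir99b and Mirlet7e, 1.87 apart, ranked 3, and Mirlet7e and Mir125a, 0.67 apart, ranked 19. Mir99a and Mirlet7c-1 ranked 45, at 0.16, and Mir100 and Mirlet7a-2 ranked 51, at 0.07. A difference of at least 2-fold was seen in 11 of the 55 pairs, so Mir99b and Mirlet7e are not alone in it. Most of these 11 pairs lie on chromosome 12, and some share a gene, as Mir299a is paired with both Mir411 and Mir380. The pairs are therefore not independent, and their number gives no rate for the genome.

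**Figure D4:**
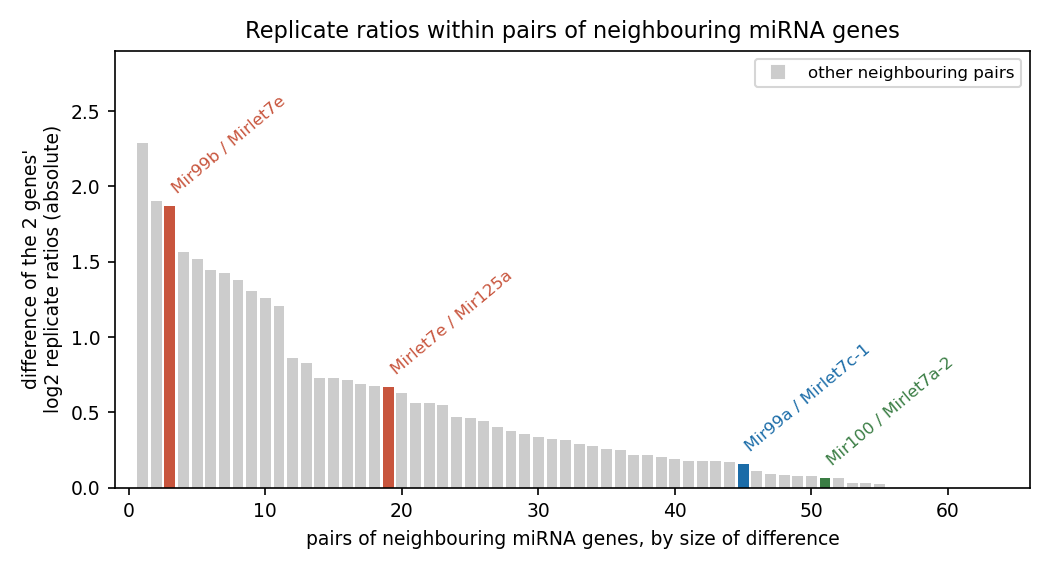
Absolute difference of the log2 replicate ratios within each of the 55 pairs of neighbouring miRNA genes, in order of size, with the pairs of the 3 clusters coloured. The pair Mir99b and Mirlet7e ranks 3 at 1.87, and the pair Mir100 and Mirlet7a-2 is near the low end at 0.07.

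The genes related to the 6 by seed were lower than each of the 6 in both libraries. The seed of miR-125, CCCUGAG, was found in 3 further genes of the RefSeq table. Mir351, an X-linked gene, had 88.3 CPM in replicate 1 and 111 CPM in replicate 2, and Mir6367 and Mir6394 had 0 counts in both. Copies of the Mir6367 and Mir6394 sequences in other genes were not searched, and multimapping reads stand outside the counts. The seed ACCCGUA of miR-99/100 was found in no other gene of that table.

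The Hox-cluster genes Mir10a and Mir10b are close relatives of miR-99/100 whose seed is shifted, and the 5p arm of miR-10a is shown for comparison with that of miR-100.
miR-10a-5p: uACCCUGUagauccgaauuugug
The 2 sequences share a run of 11 bases that starts at base 6 of miR-100-5p and at base 7 of miR-10a-5p. Mir10a had 107 CPM in replicate 1 and 399 CPM in replicate 2, a log2 ratio of -1.83 (exact binomial test, adjusted p = 2.8e-129). Mir10b had 31.3 CPM in replicate 1 and 103 CPM in replicate 2, a log2 ratio of -1.65 (exact binomial test, adjusted p = 5.2e-30). Both were thus lower in replicate 1, as Mir99b was, whereas Mir99a and Mir100 were higher there.

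Marker genes of other tissues and cell types also differed between the libraries beside these values. The 3 hindbrain and spinal cord markers, Mir10a, Mir10b and Mir196a-1, had a summed level of 138 CPM in replicate 1, against 503 CPM in replicate 2, with Mir196a-1 at 0 and 1 counts. The 3 choroid plexus and ciliated cell markers had 2949 CPM in sum in replicate 1, against 1078 CPM in replicate 2. Most of that gap lay in Mir34c, with 1747 CPM against 292 CPM. Mir204 had 1148 CPM against 744 CPM, and Mir449a had 54.8 CPM against 42.0 CPM. The 3 genes listed as epithelial had 475 CPM against 76.3 CPM in sum. Of these, Mir183 had 270 CPM against 45.5 CPM, Mir200c 185 CPM against 29.7 CPM and Mir141 19.8 CPM against 1.14 CPM. The endothelial marker Mir126a had 12521 CPM in replicate 1, against 22475 CPM in replicate 2. The sums of the oligodendrocyte markers, 6793 and 6681 CPM, and of the microglial and myeloid markers, 460 and 479 CPM, lay closer together. So did those of smooth muscle and pericytes, 8170 and 6864 CPM, red blood cells, 67.3 and 61.2 CPM, the liver marker Mir122, 28.4 and 38.4 CPM, and striated muscle, 26.5 and 22.6 CPM, where Mir1a-1 and Mir133a-1 were at 0. Some of these close sums held members that went opposite ways. Of the oligodendrocyte markers, Mir219a-2 had a log2 ratio of -0.14 and Mir338 of 0.33. Among red blood cell markers the ratio was 0.50 for Mir451a and -0.24 for Mir486. In the microglial and myeloid list it was 0.10 for Mir142, 0.17 for Mir223 and -0.12 for Mir155. The part of these cell types in the differences of Mir99b, Mir125a and the chromosome 16 and 9 genes was not tested, and in bulk tissue fewer cells of a type and less RNA per cell cannot be told apart.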

How the data were processed

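The authors deposited, per library, a table of raw read counts for 2202 miRNA genes in 3 columns, below 4 summary lines. Per the deposited notes the build was mm10 and the annotation GENCODE M21, and no source used here names the aligner, the counter or trimming. The second count column was taken as the sense strand, since it held 93.4% (replicate 1) and 91.9% (replicate 2) of stranded counts. The summary lines stayed out of library sizes: unmapped reads were 26.5% and 18.1%, multimapping ones 36.3% and 41.7%, and those assigned to no gene 5.72% and 5.91% of each total. Reads of this strain were counted against mm10, and what strain variants do to the counts was not tested. CPM used the assigned sense counts as the total. TMM factors (edgeR 4.0.16 in R 4.3.3, 0.980 and 1.02) came from genes with at least 20 counts summed, and ratios had 0.5 CPM added. The exact binomial test, whose null is counting error alone, was tested on simulated data and called genes at adjusted p under 0.05. Apart from changes put into some genes, the simulated counts held counting error only. How the test behaves under the wider spread of these libraries was thus not tested. Alternatives used DESeq2 1.42.0 size factors among others. Matures came from RefSeq (GRCm38.p6), with hairpins for 4 of the 6 genes. Named were the 6 genes, the cluster let-7 genes, seed relatives, 2 neighbours in level each and markers. The members, lists and tests were chosen with earlier results of these data known. Python 3.11.15, scipy 1.17.1 and pandas 2.3.3 were used.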

Additional observations from a re-analysis of the deposited data

How the results depend on the processing

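Of 84 levels, shares and ratios recomputed with both libraries under alternatives, 16 moved by more than the spread between replicates, 0 reversed and 68 did neither. Replicate ratios, which have no such spread, were judged by direction and test threshold, and for Mir99b the spread of 2 libraries is wide. The miR-99/100 share was 3.66% in counts without regard to strand, where Mirlet7e, overlapped by Gm25927 on the other strand, has no count. With all reads as the denominator the miR-99/100 share was 1.11% and the miR-125 share 0.450%, and with the let-7 genes and Mir98 left out of the denominator they were 5.35% and 2.14%. With a pseudocount of 5 CPM the log2 ratio of Mir99a to Mir125b-2 was 5.58. The other 10 moved values are levels of single genes under these 2 denominators. All 6 genes passed the binomial test under each of the 8 alternatives that refit it, with Mir99b between -2.11 and -1.93 on the log2 scale. Scaling by all reads moved the median log2 ratio of all genes tested to -0.17, with 267 genes called against 253 after TMM scaling, and brought Mir100 under 1.5-fold at 0.49. Other settings called between 226 and 258 genes. Left out singly, either library gives the value printed for the other, which with 2 libraries always lies within their SD of the mean and so says nothing about stability, and a replicate ratio then has no value. For the 6 genes, depth left counting intervals narrower than the spread between the libraries, and multimapping reads of miR-125b-5p were not analysed here.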
